A study of Hydra vulgaris with 2 samples.

Results

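The very long mRNAs of the *Hydra* vesicle transcriptome are the targets listed as predicted mRNAs, with a RefSeq accession that starts with XM_, and with a listed length of 8 kb (8000 bases) or more, whether or not they had reads. There were 103 of them among 25314 targets, of which 21885 are predicted mRNAs. The rule leaves out 4 transcripts by their TPM in 1 of the libraries. One was protocadherin Fat 1 (10885 bases), and 2 belong to targets under 8 kb. The remaining value matches no single target, so targets of that transcript could not be found and may still be among the members without a gene name. Lengths ran from 8035 to 24396 bases with a median of 9955.

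RNA was collected from extracellular vesicles (EVs), membrane-bound particles that cells release, pelleted from the medium of *Hydra vulgaris* polyps of the strain Zurich kept without food. Both libraries are of this 1 condition, pooled from many polyps, and proteinase K and RNase A were applied to the EVs of both before extraction. The library with the lower number in its title is called EV-A here and the one with the higher number EV-B. RNA of whole polyps was not analysed here, so no value says whether a transcript was richer in EVs than in cells. Since the 2 libraries share 1 condition, and targets are not replicates, each library's value is given and no p-value was computed. At the edge, the 3 shortest members had 8035, 8064 and 8068 bases and no count in either library. The 3 longest targets below it had 7994, 7965 and 7953 bases, with 86, 0 and 2 estimated counts in EV-A and 4, 0 and 0 in EV-B.

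Most animal mRNAs are far shorter than 8 kb. The longest ones usually encode giant proteins, such as the spectraplakins that tie actin filaments to microtubules, the scaffold AHNAK, the tethers of the Golgi apparatus and the large secreted or adhesive proteins of the cell surface. A long transcript offers more bases from which a sequenced fragment can come, so that at one level per molecule it collects more reads than a short transcript. TPM, the usual measure of transcript abundance scaled to a fixed total per library, divides the reads by the length of the target and thereby removes this difference. The deposited tables hold 1 estimated count per target and no coverage along it, so they do not show whether a long mRNA was present whole or in pieces.

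The depth was 5943550.5 estimated counts for EV-A and 3943873 for EV-B, and the 5 most abundant targets took 97.0% and 98.7% of them. Outside these 5, the very long mRNAs held 7844 of 176028 counts in EV-A, or 4.46% (95% Wilson interval 4.36 to 4.55%). In EV-B they held 303 of 51977 counts, or 0.584% (0.522 to 0.653%). Such intervals cover counting error only, since reads made by amplification are not independent molecules.

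The most abundant very long mRNA in both libraries was that described as neuroblast differentiation-associated protein AHNAK. In EV-A the counts of the members ran from 0 over a median of 19 to 1846, and in EV-B from 0 over a median of 0 to 74. The 10 members with a gene name held 68.8% of the members' counts in EV-A and 78.9% in EV-B. The gene list that gave the names ends at a mean of 1.08 TPM, so only abundant members could be named. Of all 103 members, 85 had the higher TPM in EV-A and 17 had no count at all, where an estimated count that rounds to 0 at 3 decimals is taken as none. The remaining 1 had the higher TPM in EV-B, on 1.00 estimated count. Over all targets, 1048 of 25314 had the higher TPM in EV-B, as had 854 of 21779 shorter predicted mRNAs outside the 5 most abundant. At least 1 count in either library was found on 83.5% of the members, 52.9% of these shorter mRNAs and 49.3% of all targets.

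**Figure D1:**
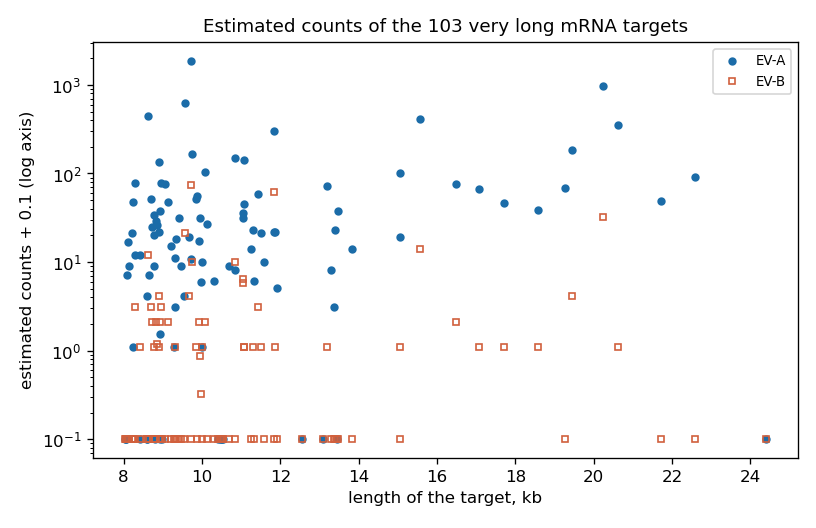
Estimated counts of each of the 103 very long mRNA targets in EV-A (filled circles) and EV-B (open squares) (with 0.1 added, log axis), against the length of the target in kb. The highest point is AHNAK with 1846 counts in EV-A and 74 in EV-B, and the row of points at the bottom holds the targets without counts.

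The AHNAK transcript (LOC101240323, XM_012706187.1, 9720 bases) encodes a protein known in vertebrates as a giant scaffold beneath the plasma membrane. It had 1846 estimated counts in EV-A and 74 in EV-B. Per length this was 27.4 TPM in the former and 1.74 TPM in the latter (mean 14.6 ± 18.1 TPM, SD, n = 2 libraries). This single transcript took 23.5% of the counts of all very long mRNAs in EV-A and 24.4% in EV-B. It was the first of them in both libraries and above 0.4 TPM in both. Its counts are whole in both libraries.

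Members of the spectraplakin family, which in animals bind both actin and microtubules, accounted for 3 of the named transcripts. Dystonin-like LOC100209298 (XM_012709794.1, 9559 bases) had 621.7 estimated counts in EV-A and 21.2 in EV-B, that is 9.39 and 0.507 TPM. The microtubule-actin cross-linking factor 1-like transcript (LOC105843599, XM_012699174.1) is 20229 bases long and had 973.3 and 31.8 estimated counts, or 6.91 and 0.358 TPM. The counts of both are fractional, and together they sum to 1595 in EV-A and 53 in EV-B, whole numbers within 0.001. Kallisto splits a read that fits several targets, so part of these reads could not be assigned to one of the transcripts alone, and their order is uncertain. The sum of both does not depend on this split.

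A second dystonin-like gene, LOC100214026 (XM_012702977.1, 10851 bases), had 151 estimated counts in EV-A and 10 in EV-B, all of them whole, with 2.01 and 0.211 TPM. Filamin-A-like LOC100206373 (XM_012702267.1, 8623 bases), whose protein cross-links actin filaments, had 446 and 12 estimated counts, or 7.47 and 0.319 TPM. The words listed for cytoskeletal linkers matched 4 named transcripts, the 3 spectraplakins and filamin, which says nothing of the members without a name. In EV-B only LOC100209298 of these was above 0.4 TPM.

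The golgin subfamily B member 1-like transcript (LOC100201149, XM_012707206.1, 11827 bases) stood out from the other members in EV-B. In vertebrates this protein, giantin, is a tether on the membranes of the Golgi apparatus. It had 300.4 estimated counts in EV-A and 61.2 in EV-B, with 3.66 and 1.18 TPM (mean 2.42 ± 1.75 TPM, SD, n = 2). In EV-A it ranked below AHNAK, LOC100209298, LOC105843599, filamin and the uncharacterized LOC101234511, while in EV-B it was second only to AHNAK by TPM. EV-B gave 16.9% of its counts over both libraries (95% Wilson interval 13.4 to 21.1%), compared with 3.11% for the other very long mRNAs together. Its counts are fractional. A predicted mRNA of 3372 bases listed directly before it, XM_004210847.2, complements them to 361 in EV-A and 86 in EV-B, and no other target does so in both libraries. For this sum, EV-B gave 19.2%.

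The opposite was seen for the transcript of a protein with MAM and LDL-receptor class A domains (LOC100207753, XM_012703436.1, 20623 bases), both of which are modules of extracellular proteins. It had 350 estimated counts in EV-A and 1 in EV-B, that is 2.44 and 0.0110 TPM. EV-B gave 0.285% of its counts (0.0503 to 1.60%), compared with 3.88% for the other members. Mucin-5AC-like LOC100215810 (XM_004206591.2, 9753 bases), whose mammalian counterpart forms mucus gels, had 166 and 10 estimated counts, or 2.46 and 0.235 TPM. It was the only named member that matches the words for matrix and adhesion. The words for channels, receptors and transporters matched only LOC100207753, through the name of its domain. No named member matched the words for motors and contractile proteins, lipoprotein and endocytic proteins, ubiquitin and kinases, or RNA and chromatin.

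The other 2 named members are described as uncharacterized. LOC101234511 (XM_012707555.1, 15565 bases) had 407 estimated counts in EV-A and 14 in EV-B, with 3.76 and 0.205 TPM. LOC100214647 (XM_012704959.1, 8890 bases) had 136 and 4 estimated counts, with 2.21 and 0.103 TPM. In EV-A the 10 named members thus lay between 2.01 and 27.4 TPM, and in EV-B between 0.0110 and 1.74 TPM. These members could be named only because their mean TPM was high, and that mean rests mostly on EV-A. The higher range in EV-A therefore follows in part from how they were chosen, and both ranges are a description.

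**Figure D2:**
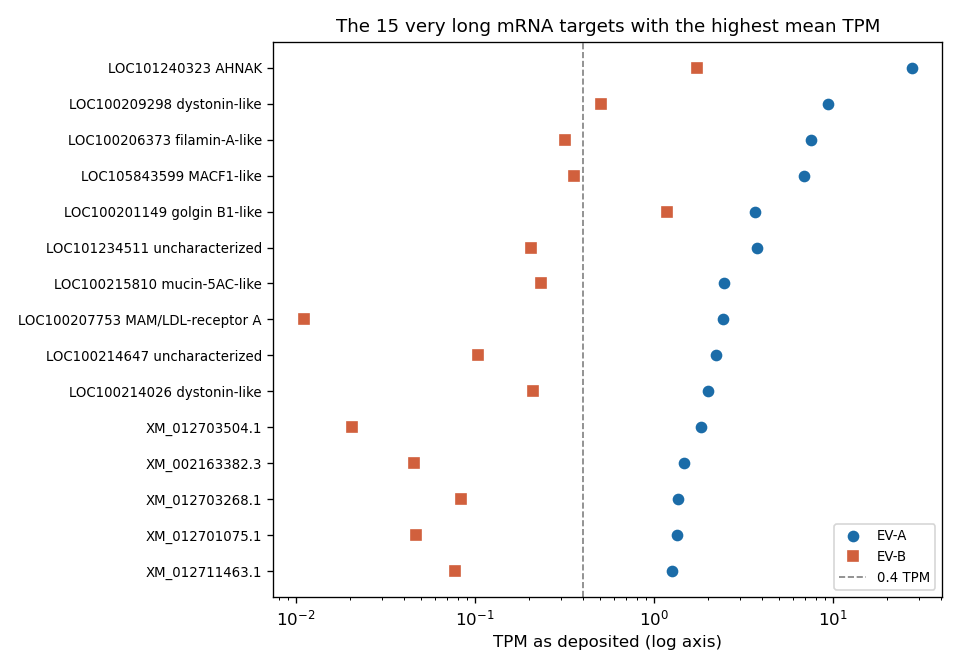
TPM as deposited, on a log axis, of the 15 very long mRNA targets with the highest mean TPM, in EV-A (circles) and EV-B (squares), with the threshold of 0.4 TPM as a dashed line. All 15 lie right of the line in EV-A, from 1.26 to 27.4 TPM, and 3 of them do in EV-B.

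The remaining 93 members have no gene name here and are given by their accession. They held 2447 estimated counts in EV-A and 64.1 in EV-B. Among them 29 reached 0.4 TPM in EV-A and none in EV-B, where the highest was 0.130 TPM. The most abundant was XM_012703504.1 (11071 bases), with 140 estimated counts in EV-A and 1 in EV-B, or 1.82 and 0.0207 TPM. XM_002163382.3 (10073 bases) had 103 and 2 estimated counts, at 1.48 and 0.0454 TPM, and XM_012703268.1 (8295 bases) 78 and 3, at 1.36 and 0.0830 TPM. These 3 were each below every named member in EV-A. That order follows in part from the naming, since the gene list ends at a mean of 1.08 TPM. XM_012701075.1 (19440 bases) had 182 and 4 estimated counts, more than each of these 3, but a lower level per length in EV-A, with 1.34 and 0.0469 TPM. XM_012711463.1 (8954 bases) had 78 and 3 estimated counts, at 1.26 and 0.0768 TPM.

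The very longest targets were among those with many reads. Of the 14 members of 15 kb or more, 13 had between 19 and 973.3 estimated counts in EV-A, and 9 had a count in EV-B. The exception was the longest target of the series, XM_012700251.1 with 24396 bases, which had no count in either library. The target listed directly after it, XM_012700252.1 with 22584 bases, had 92 estimated counts in EV-A, or 0.585 TPM, and none in EV-B. XM_012701242.1 (21728 bases) had 49 counts in EV-A and none in EV-B. Across the 103 members, length and counts per kb in EV-A were only weakly related (Spearman rho 0.164), a description across targets of one library.

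Of the 103 members, 17 had no count in either library, with lengths from 8035 to 24396 bases. Besides XM_012700251.1, the longest were XM_012705844.1 (13446 bases), XM_012705888.1 (13089 bases), XM_012708979.1 (12561 bases) and XM_012698225.1 (10544 bases). Members that stand directly next to each other in the deposited list were frequent among them: 25 members form 8 such runs of up to 6 targets, and 14 of the 17 members without counts belong to a run. A run of 6 targets of 9656 to 10544 bases had 19 counts in EV-A and 4 in EV-B, all on 1 target, XM_012698230.1. In another run of 6, of 8410 to 8989 bases, the counts summed to 9 in EV-A and 1 in EV-B. Targets of one run may be transcripts of a single gene, which the tables do not state, and kallisto can then place shared reads on a single one of them. A count of 0 on such a target then sets no upper limit by itself. The total of the run does so only if no target outside it shares the reads. With each run counted once there were 86 entries, of which 37 had a member at 0.4 TPM or more in EV-A and 4 had no count at all.

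Fractional counts, which show that reads were shared with another target, were found for 14 of the 103 members (13.6%). The share was 9.30% of all targets and 8.76% of the shorter predicted mRNAs, but 15.3% of those from 2 to 4 kb and 17.3% of those from 4 to 8 kb. A target without reads cannot have a fractional count, and at least 1 count was found on 83.5% of the members but 52.9% of the shorter mRNAs. The higher share of the members is therefore not by itself more sharing of reads. For 8 of the 14 members the counts were fractional in both libraries. A single partner that completes the counts to whole numbers in both libraries was found for 7 of these 8 among all 386 targets with such counts. For 6 the partner was another very long mRNA. XM_012699783.1 and XM_012699784.1, which are neighbours of 11054 and 11052 bases, had 31.4 and 35.6 estimated counts in EV-A and 5.72 and 6.28 in EV-B, and sum to 67 and 12. XM_012699885.1 and XM_012699886.1, also neighbours, sum to 37 and 1.

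Detection of the very long mRNAs, relative to shorter ones, depended on how it was defined. With the threshold that the study used, 0.4 TPM or more in either library, 39 of 103 members (37.9%) were detected, all of them in EV-A, while 25.3% of all targets of the series were. Of the 21779 predicted mRNAs under 8 kb, which here and below leave out those of the 5 most abundant targets, 25.1% were. In EV-A the shares were 37.9% of the members, 24.2% of the shorter mRNAs and 24.4% of all targets. In EV-B only 3 members passed, AHNAK, golgin and LOC100209298, and the order was the other way round: 2.91% of the members, 4.51% of the shorter mRNAs and 5.16% of all targets. Golgin at 1.18 TPM and LOC100209298 at 0.507 TPM have fractional counts, so that these values depend on how shared reads were split. This order in EV-B did not hold at 1 TPM, with 1.94% of the members and 1.70% of the shorter mRNAs, nor with TPM rescaled without the 5 most abundant targets, with 41.7% and 13.9% at 0.4 TPM. At the threshold, XM_012701168.1 lay just inside with 0.405 TPM in EV-A, and XM_012702925.1 just outside with 0.384 TPM.

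A threshold on TPM asks for more reads on a longer target. On a member of median effective length, 9860 bases in EV-A, 0.4 TPM stands for 27.6 estimated counts there and for 17.4 in EV-B. On a shorter mRNA of median effective length, 1026 bases in EV-A, it stands for 2.87 and 1.81 counts. Counted by reads, the very long mRNAs were detected more often than the shorter ones in both libraries. A longer target collects more reads at one level per base, so this order is not by itself a higher level per base. At least 3 estimated counts were found on 81 of 103 members (78.6%) in EV-A, compared with 28.8% of the shorter mRNAs and 26.6% of all targets. In EV-B they were found on 17 members (16.5%), each of which also had 3 in EV-A, compared with 3.24% of the shorter mRNAs and 3.26% of all targets. At least 10 counts were found on 63.1% of the members and 8.95% of the shorter mRNAs in EV-A, and on 7.77% and 0.730% in EV-B.

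These shares rose with length through the classes of shorter mRNAs. In EV-A the share with 3 counts or more was 10.3% under 0.5 kb, 17.5% from 0.5 to 1 kb, 30.9% from 1 to 2 kb, 51.2% from 2 to 4 kb and 69.2% from 4 to 8 kb. The share at 0.4 TPM or more moved much less over the same classes, between 23.2% and 28.9%. In EV-B the latter fell from 7.01% under 0.5 kb to 1.68% from 4 to 8 kb and stood at 2.91% for the very long mRNAs, a difference that rests on 3 members. There 1 count stands for 0.221 TPM at the median effective length of the shorter mRNAs, 1024 bases, and for more on a shorter target. Under 0.5 kb the share at 0.4 TPM was thus close to that with at least 1 count, 6.87%. Since 0.4 TPM asks for more reads in longer classes, this fall is not by itself a lower level per base. No test was made between the classes.

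**Figure D3:**
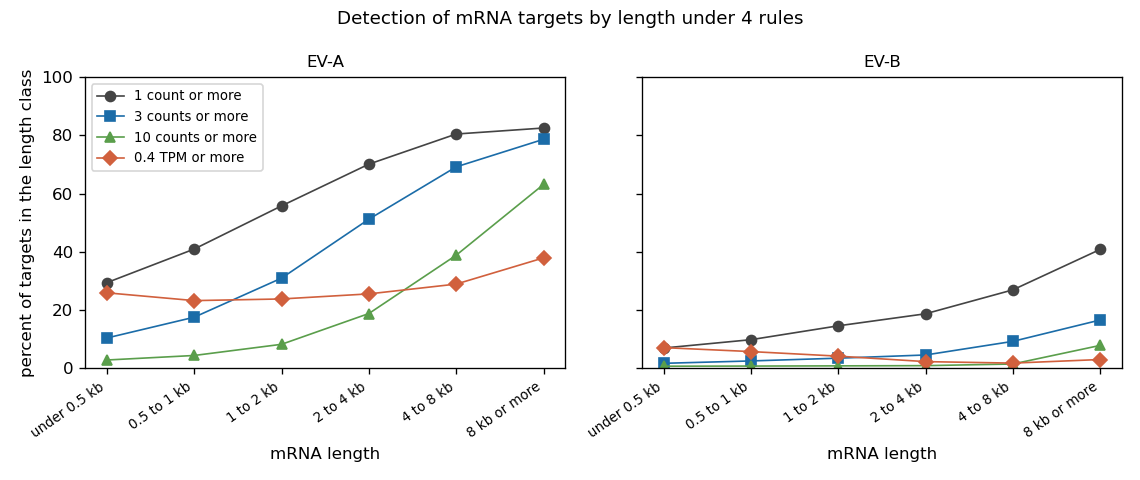
Percent of predicted mRNA targets in each length class with at least 1, 3 or 10 estimated counts or at 0.4 TPM or more, in EV-A (left) and EV-B (right). Shares by counts rise with length, to 78.6% and 16.5% for 3 counts at 8 kb or more, while the share at 0.4 TPM in EV-B is 7.01% under 0.5 kb and 2.91% at 8 kb or more. At one level per base a longer target collects more reads, and 0.4 TPM stands for more reads on it.

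Counts per base give the same comparison without a threshold. In EV-A the very long mRNAs had 6.81 estimated counts per kb when pooled (95% Poisson interval 6.66 to 6.96), compared with 4.30 (4.28 to 4.32) for all shorter mRNAs, a ratio of 1.58. In EV-B they had 0.263 (0.234 to 0.295), compared with 1.12 (1.10 to 1.13), a ratio of 0.236. The members were thus above the pooled value of all shorter mRNAs in EV-A and below it in EV-B. The mean ratio of 0.909 describes neither library. This order did not hold against every length class. The class under 0.5 kb had 9.40 counts per kb in EV-A, above the members, while the other shorter classes had 3.13 to 5.07. The class from 4 to 8 kb had 0.197 in EV-B, below the members, while the other shorter classes had 0.332 to 5.35. With the 5 most abundant targets kept, 2 of which are shorter predicted mRNAs, the ratio in EV-A was 0.588, so that the direction there turned. Pooled values rest on few targets. In EV-B 1 shorter mRNA, the ELMO domain-containing protein 2-like LOC100208569, held 36.9% of the counts of all shorter mRNAs, and without it the ratio was 0.374. Without the 1% of targets with the highest counts per kb in each length class, the ratios were 2.06 in EV-A and 1.02 in EV-B, so that the lower value of the members in EV-B was lost.

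Without AHNAK, the pooled value of the very long mRNAs was 5.25 counts per kb in EV-A and 0.201 in EV-B, and the ratios to the shorter mRNAs were 1.22 and 0.180. The 5 members with the most counts held 54.7% of the members' counts in EV-A and 66.7% in EV-B. The median depends less on these few targets, but it follows the share of targets with a count, which rises with length. It was 0 in EV-A under 0.5 kb and from 0.5 to 1 kb, where 29.4% and 40.9% of the targets had a count. A higher median in a longer class, as counts per kb or TPM, is therefore not by itself a higher level per base. In EV-A the median was 1.86 counts per kb for the very long mRNAs, with quartiles of 0.442 and 4.17, compared with 1.29 from 4 to 8 kb, 1.04 from 2 to 4 kb and 0.496 for all shorter mRNAs. As TPM this was 0.267 for the members, 0.0741 for the shorter mRNAs and 6.49e-05 for all targets. The quartiles of the members overlap those of every class. In EV-B the median was 0 in every class. The 54 members of 8 to 10 kb and the 49 members of 10 kb or more had medians of 1.67 and 1.86 counts per kb in EV-A, and the 14 members of 15 kb or more had 3.97.

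**Figure D4:**
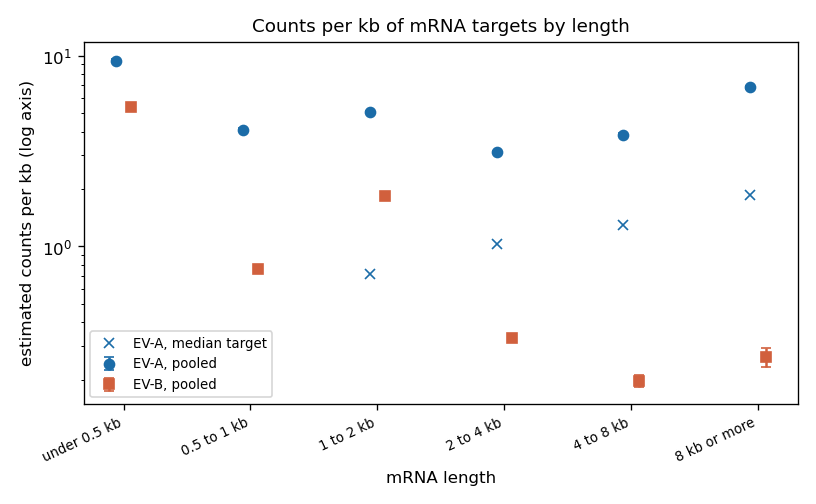
Estimated counts per kb of predicted mRNA targets by length class, on a log axis, pooled over the class in EV-A (circles) and EV-B (squares) with 95% Poisson intervals, and the median target in EV-A (crosses, shown where above 0). The 5 most abundant targets are left out. At 8 kb or more the pooled values were 6.81 and 0.263 and the median in EV-A was 1.86.

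The fall from EV-A to EV-B was larger for the very long mRNAs than for the shorter ones. EV-B gave 3.72% of the members' counts over both libraries (95% Wilson interval 3.33 to 4.16%), compared with 20.6% (20.4 to 20.8%) for all shorter mRNAs. On the log2 scale, counts in EV-B over EV-A were -4.69 for the members and -1.95 for the shorter mRNAs, a difference of -2.75. Without LOC100208569 the share of the shorter mRNAs was 15.3% and the difference -2.22. The difference was -1.02 without the 1% of targets with the highest counts per kb and -1.72 with whole counts only. By length, the share from EV-B was 36.3% under 0.5 kb, 15.7% from 0.5 to 1 kb, 26.7% from 1 to 2 kb, 9.59% from 2 to 4 kb and 4.89% from 4 to 8 kb. The class of 1 to 2 kb breaks this order and holds LOC100208569. Without that transcript its share was 16.0%, which still did not lie below the class before it.

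Single targets showed a smaller difference than the pooled counts. Among targets with at least 20 estimated counts over both libraries, the median share from EV-B was 2.59% for 52 very long mRNAs, with quartiles of 0.214 and 4.35%. It was 5.88% for 992 shorter mRNAs, with quartiles of 2.33 and 10.8%, and fell through the classes from 10.4% under 0.5 kb and 8.45% from 0.5 to 1 kb to 4.17% from 2 to 4 kb and 3.18% from 4 to 8 kb. The quartiles of neighbouring classes overlap. The floor of 20 counts kept 52 of 103 members but 992 of 21779 shorter mRNAs, so that the classes compared differ in level per base as well as in length. Most of these counts came from EV-A, so the floor selects mainly on that library. Each library is 1 preparation, so that a dependence on length cannot be told apart from any other difference between these preparations, and the fragment length of the RNA is not in the tables.

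**Figure D5:**
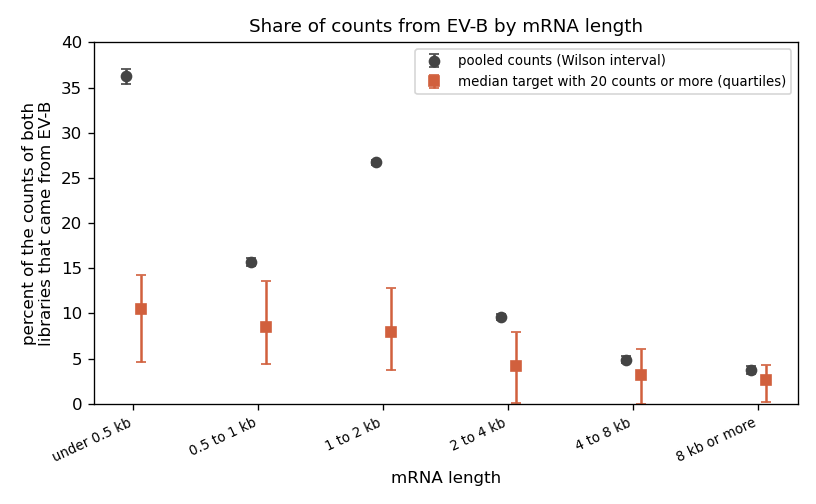
Percent of the estimated counts of both libraries that came from EV-B, by mRNA length class, for the pooled counts (circles, 95% Wilson intervals) and for the median target with at least 20 counts over both libraries (squares, quartiles). The share at 8 kb or more was 3.72% pooled and 2.59% for the median target, and under 0.5 kb it was 36.3% and 10.4%.

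Few very long mRNAs could be set apart from the others in their fall. For 47 of the 52 members with at least 20 counts, the Wilson interval of the share from EV-B held the share of all other members, but these intervals are wide, with upper limits of up to 23.4%. It lay above for 4, which were golgin, XM_012699783.1, XM_012699784.1 and XM_012698230.1, and below for LOC100207753 alone. The 52 intervals were not corrected for their number, so that some may lie outside by counting error alone. Of the 4 above, 3 have fractional counts. XM_012699783.1 and XM_012699784.1 complement each other to whole sums, so that they are not separate cases. XM_012698230.1 had 19 counts in EV-A and 4 in EV-B, with an interval of 6.98 to 37.1%. In EV-B 13 of the 52 had no count, among them XM_012700252.1 with 92 counts in EV-A, the most of these. With at least 20 counts over both libraries, 200 of 992 shorter mRNAs (20.2%) also had none in EV-B. The same held for 20.1% of 1114 such targets of any kind. Through the shorter classes the share ran from 5.13% under 0.5 kb to 30.9% from 4 to 8 kb. The share of the members lay within this range, so it does not set them apart. Over the 86 members with at least 1 count, the estimated counts of the libraries had a Spearman rho of 0.687 and, as log2(counts + 1), a Pearson r of 0.739, given as a description since targets share library and length.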

How the data were processed

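Per the labels and the paper's methods, the authors trimmed the reads of 2 EV libraries with Trim Galore and quantified them against the transcripts of the assembly Hydra_RP_1.0 with kallisto. The kallisto version is not given in the sources used here. The deposited estimated counts are not normalized, with shared reads split between targets. The deposited TPM values, made by the authors, divide counts by effective length and are scaled to one total per library. Other deposited columns hold length and effective length in bases.

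Nothing was normalized again. Counts were rounded to 3 decimals before thresholds were applied. The members, word lists and alternatives were chosen with earlier results of these data known. Text names the 15 members with the highest mean TPM, the 5 with most counts in each library, the 5 longest and the 5 longest without counts, and others chosen after their values were seen: XM_012699783.1, XM_012699784.1, XM_012699885.1, XM_012699886.1, XM_012698230.1, XM_012701168.1, XM_012702925.1, XM_004210847.2 and LOC100208569. Gene names came from the given part of the supplementary gene list (1264 genes), by a unique pair of TPM values, for 10 members. No member accession, but 6 of the 10 gene identifiers, were found in the annotation table of HydraT2T_AEP, another assembly. Intervals are Wilson or exact Poisson intervals at 95%, and the floor is 3 counts. Python 3.11.15, pandas 2.3.3, scipy 1.17.1 and matplotlib 3.10.9 were used. The pooled ratios and intervals were tested on simulated Poisson counts, with a single rate per base for the long and for the shorter targets. The real counts rest on few targets, so that this check does not show how the ratios behave here. The alternatives were other thresholds, sets of targets, lengths and a rescaled TPM.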

Additional observations from a re-analysis of the deposited data

How the results depend on the processing

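The number of very long mRNAs at 0.4 TPM or more in either library was 39. It was 16 at 1 TPM, 3 when both libraries were required, 86 with TPM rescaled without the 5 most abundant targets, 89 from a length of 6 kb and 19 from 10 kb. Leaving out each library in turn gave 3 and 39. The number with at least 3 counts, 81, was 17 in both libraries, 201 from 6 kb and 40 from 10 kb, and 17 to 81 with a library left out. The counts for other lengths differ because other numbers of targets enter. After rescaling, 83.5% of the members and 54.1% of the shorter mRNAs passed.

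The ratio of pooled counts per kb, mean 0.909 with 1.58 in EV-A and 0.236 in EV-B, has an SD as large as itself, so that no alternative moved its mean by more than that SD. With the 5 most abundant targets kept it was 0.588 in EV-A and 0.0910 in EV-B. The log2 difference between members and shorter mRNAs in counts of EV-B over EV-A, -2.75, was -1.02 without the 1% of highest counts per kb, -1.72 with whole counts only, -2.37 from 6 kb and -2.22 without LOC100208569. It stayed negative under every alternative run. Removing AHNAK or LOC100208569 and counting runs once were chosen after seeing the data. Why these values moved was not tested. No paired analysis was possible because there is 1 condition.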
